A study of Mus musculus with 7 samples.

Results

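sCAF, the podoplanin-negative cancer-associated fibroblast sort, was set beside GFP+ EpCAM- cells, the sort of labelled carcinoma cells that lacked the epithelial surface marker EpCAM. These are 2 of the 7 libraries of the series, and they were deposited in separate count tables. The comparison ran over the 13236 gene names that both tables list, of which 8779 had 20 or more counts in either library. The study measured 3' end mRNA of cells sorted from orthotopic 4T1 breast tumours and from normal fat pad, and its labels describe sorts that separate stromal from carcinoma cells. 4T1 is a mouse mammary carcinoma line that grows in BALB/c mice.

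The sCAF cells were sorted as Ter119-, CD45-, EpCAM- and PDPN- from tumours of 4T1-luc cells in BALB/c females 12 weeks old, 4 weeks after 100000 cells were placed in the mammary fat pad. The GFP+ EpCAM- cells were sorted as Ter119-, CD45-, GFP+ and EpCAM- from tumours of 4T1-GFP cells in mice of the same sex, strain, age and time. From that second kind of tumour came 3 more sorts, GFP+ EpCAM+, GFP- EpCAM+ and GFP- EpCAM-, all Ter119- and CD45-. pCAF was the PDPN+ counterpart of sCAF, and NMF was the same lineage-depleted stroma from the fat pad of uninjected females 8 weeks old. The sCAF gate, as labelled, used no marker of the carcinoma cells other than EpCAM, and the 2 kinds of tumour grew from different derivatives of the line. The labels do not say how many animals were pooled. Each group is 1 library, so no difference has a replicate check and no test was made.

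Cancer-associated fibroblasts are the collagen-producing mesenchymal cells of a tumour, and podoplanin is a surface glycoprotein carried by many of them. Carcinoma cells express simple keratins and junction proteins, and can lose EpCAM and other epithelial surface proteins while they gain mesenchymal features. Osteopontin, the product of Spp1, is a secreted phosphoprotein made by macrophages, by some fibroblasts and by several carcinomas, and Krt18 encodes the type I keratin that pairs with Krt8 in simple epithelia.

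Both marker genes were abundant in both libraries. Spp1 had 15663 counts in sCAF, against 14718 in GFP+ EpCAM- cells. In CPM, the count scaled to a common library size over the shared genes, this was 6051 CPM in sCAF and 7426 in GFP+ EpCAM- cells, with 6696 in GFP+ EpCAM+, 3752 in GFP- EpCAM+, 587 in GFP- EpCAM-, 1376 in pCAF and 6.04 in NMF. The level in sCAF was close to that of the GFP-labelled sorts and above that of pCAF. The ratio of sCAF over GFP+ EpCAM- was 0.815, with an exact 95% interval of 0.797 to 0.833 that covers counting error only. In these bulk libraries fewer cells of a type and less RNA per cell cannot be told apart. Krt18 stood at 2942 CPM in sCAF and 2082 in GFP+ EpCAM- cells, with 2682 in GFP+ EpCAM+, 4371 in GFP- EpCAM+, 465 in GFP- EpCAM-, 36.8 in pCAF and 30.2 in NMF. Its ratio was 1.41 (interval 1.36 to 1.47), and the sCAF level lay between those of the 2 EpCAM+ sorts. The promoters of the 2 marker genes, from RefSeq on GRCm38.p6, are shown because their levels set sCAF apart from the other fibroblast libraries. They run from 250 bases before to 50 after the gene start, at chr5:104434861-104435160 (plus strand) for Spp1 and chr15:102027966-102028265 (plus strand) for Krt18. Capitals mark matches on either strand to TGANTCA (AP-1), ACCACA (RUNX), CCAAT (NF-Y, whose minus-strand match is printed as its reverse complement) and TATAAA (bound by TBP). The sequence table lists 2 starts for Spp1, of which the first is printed.
Spp1: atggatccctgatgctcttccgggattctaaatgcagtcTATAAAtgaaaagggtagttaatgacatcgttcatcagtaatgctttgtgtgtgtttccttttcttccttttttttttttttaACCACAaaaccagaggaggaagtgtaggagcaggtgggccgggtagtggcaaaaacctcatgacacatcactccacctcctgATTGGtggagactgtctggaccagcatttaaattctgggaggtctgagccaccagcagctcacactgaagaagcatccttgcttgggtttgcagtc
Krt18: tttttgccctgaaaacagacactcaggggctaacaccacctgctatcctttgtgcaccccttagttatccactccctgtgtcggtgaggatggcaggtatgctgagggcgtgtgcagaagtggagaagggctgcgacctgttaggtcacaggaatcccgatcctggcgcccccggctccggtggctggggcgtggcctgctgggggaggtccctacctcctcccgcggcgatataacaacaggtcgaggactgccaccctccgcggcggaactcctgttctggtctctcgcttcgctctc
The Spp1 window held ACCACA at -128 and TATAAA at -211 on the plus strand and CCAAT at -46 on the minus strand. Krt18 held no match to any of the 4. Of 32851 promoters of this length, 7.81% held TGANTCA, 16.8% ACCACA, 37.4% CCAAT and 13.6% TATAAA. A match describes the letters only.

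The libraries held 2588387 counts over the shared genes in sCAF and 1981977 in GFP+ EpCAM- cells, and between 434592 (pCAF) and 2384264 (GFP+ EpCAM+) in the others. A count of 0 allows up to 1.16 CPM in sCAF and 1.51 in GFP+ EpCAM- cells (3 counts). Ribosomal protein genes took 15.4% of the counts in sCAF and 10.8% in GFP+ EpCAM- cells. The minimum of 20 counts left out 4457 genes that held 0.763% of the counts in sCAF and 0.791% in GFP+ EpCAM- cells. Just inside it stood 98 genes with a larger count of 20 and a median smaller count of 10, and just outside it 95 genes with a larger count of 19 and a median smaller count of 8. The sort markers followed the gates where a gate used them. Pdpn, which encodes podoplanin, had 0 counts in both libraries, against 589 CPM in pCAF. The GFP+ EpCAM- gate, as labelled, did not use podoplanin, so for that library the value is no check of the sort. Epcam stood at 30.5 CPM in sCAF and 27.2 in GFP+ EpCAM- cells, against 305 in GFP+ EpCAM+ cells. Ptprc, which encodes CD45, had 0 counts in both. The name sCAF is used here for the sort and not for a cell type, since its collagen genes stood far below those of pCAF and NMF and its keratin genes far above them, as given below.

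Ranked within each library, the 2 gene orders were close. Spearman's rho between sCAF and GFP+ EpCAM- over the 8779 genes was 0.81, across genes, which are not independent replicates. On the same genes rho of sCAF was 0.82 with GFP+ EpCAM+, 0.82 with GFP- EpCAM+, 0.68 with GFP- EpCAM-, 0.61 with pCAF and 0.62 with NMF. So on these genes the rank order of sCAF lay nearer to the 3 GFP+ or EpCAM+ sorts than to pCAF and NMF. It was no nearer to GFP+ EpCAM- than to the 2 EpCAM+ sorts. The genes were chosen by their counts in sCAF and GFP+ EpCAM-, so genes abundant in pCAF or NMF alone were left out. pCAF was also the shallowest library, with 434592 counts. How far these limits lower rho with pCAF and NMF was not tested. GFP+ EpCAM- and GFP+ EpCAM+ had a rho of 0.97, within 1 table. The median gene moved by 8.62 rank points of 100 between sCAF and GFP+ EpCAM-, and 55.4% of genes lay within 10 points. Beyond 50 points were 200 genes, of which 161 ranked lower in sCAF and 39 higher. Of the 100 most abundant genes of sCAF, 64 were among the 100 of GFP+ EpCAM-, 62 of GFP+ EpCAM+, 63 of GFP- EpCAM+, 51 of GFP- EpCAM-, 51 of pCAF and 42 of NMF.

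Many of the most abundant genes were shared. B2m, the light chain of class I molecules, was the most abundant non-ribosomal gene of sCAF at 7899.9 CPM, against 4892 in GFP+ EpCAM- cells. Lgals1, a secreted galectin, stood at 6966 CPM in sCAF, against 11053 in GFP+ EpCAM- cells. Vim, the mesenchymal intermediate filament vimentin, stood at 6130.1 CPM in sCAF, against 9096 in GFP+ EpCAM- cells. S100a6 (5853 CPM in sCAF, 5537 in GFP+ EpCAM-) and Actb (4986 CPM in sCAF, 6212 in GFP+ EpCAM-) were likewise in both lists of the top 15. Fth1, the ferritin heavy chain, led GFP+ EpCAM- cells at 11464 CPM and stood at 4226 in sCAF, a difference that passed the 2-fold rule described next.

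**Figure D1:**
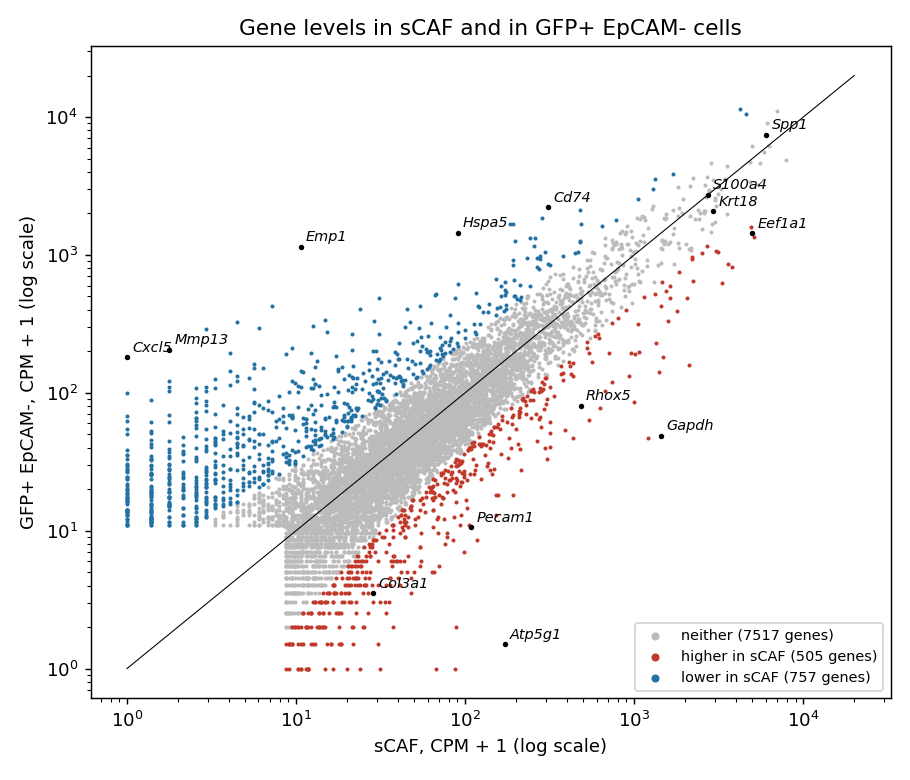
CPM + 1 in sCAF (x axis) against GFP+ EpCAM- cells (y axis), both log scales, for the 8779 genes, with the line of equal level. The 505 genes called higher and the 757 called lower in sCAF are coloured, and Spp1, Krt18 and S100a4 lie near the line at the top.

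A gene was called when the whole counting interval of its CPM ratio lay beyond 2-fold. In sCAF 505 of 8779 genes were called higher (5.75%) and 757 lower (8.62%), while 7517 (85.6%) were neither. The counts of list members called, given below, are to be read beside these shares. The median log2 ratio was 0.11 with an SD over genes of 1.38, and 71.6% of genes lay within 2-fold. Higher calls made up 40.0% of all calls, or 52.4% when the quintile of genes with the lowest GC at the 3' end was left out and 22.6% under a 4-fold rule. Because the tables are separate, these ratios describe 2 libraries and carry any difference between the tables. All 3 libraries of the first table stood above all 4 of the second for 130 of the 505 genes called higher (25.7%, against 6.06% of all genes). They stood below for 246 of the 757 called lower (32.5%, against 7.86% of all genes). sCAF was the lowest of all 7 libraries for 482 of the 757 called lower (63.7%, against 10.5% of all genes). It was the highest of the 7 for 271 of the 505 called higher (53.7%, against 26.3%). A called gene already has sCAF beyond GFP+ EpCAM- in that direction. The call itself thus raises these shares and those of the table split above the shares of all genes.

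The genes with the largest ratios included an enzyme of glycolysis, a mitochondrial subunit and chaperones. Gapdh and Hspa8 have near copies in the genome, so reads that the copies share make their counts uncertain. Atp5g1, a subunit of mitochondrial ATP synthase, had 441 counts in sCAF, against 1 in GFP+ EpCAM- cells (ratio 338, interval 60.3 to 13368). All 3 libraries of the first table stood above all 4 of the second for it. Gapdh, a glycolytic enzyme, stood at 1435 CPM in sCAF and 47.9 in GFP+ EpCAM- cells, with 32.7 in GFP+ EpCAM+, 36.1 in GFP- EpCAM+, 29.1 in GFP- EpCAM-, 0 in pCAF and 470.4 in NMF. It was thus at 0 in 1 library of the same table as sCAF. The chaperone genes Hspa8 (1203 CPM in sCAF, 46.4 in GFP+ EpCAM-) and Hsp90aa1 (117 CPM in sCAF, 7.57 in GFP+ EpCAM-) were also split between the tables.

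The 12 top-ranked genes called higher and not split between the tables were of several kinds, with Gapdh, Pin4, Kpna2 and Gpx4 among them. Some of the 12 are known from blood vessels or from development. Of those described here Wnt6, Tnfrsf19, Mmrn2 and Ptprb reached the minimum in sCAF alone, so the minimum itself favoured that direction. Wnt6, a secreted Wnt ligand, stood at 18.9 CPM in sCAF and 0 in GFP+ EpCAM- cells, so at least 12.5-fold higher against 3 counts. Tnfrsf19, a receptor of the tumour necrosis factor family, stood at 47.1 CPM in sCAF, against 2.52 in GFP+ EpCAM- cells (ratio 18.7, interval 7.79 to 58.6). It was also 28.3-fold the NMF level within its own table, where this and later folds are after TMM scaling. Mmrn2, an extracellular matrix protein of endothelium, stood at 32.8 CPM in sCAF, against 1.51 in GFP+ EpCAM- cells and at 512 in GFP- EpCAM- cells. Ptprb, the vascular endothelial protein tyrosine phosphatase, stood at 13.9 CPM in sCAF and at 0 in GFP+ EpCAM- cells, with 190.5 in GFP- EpCAM- cells. Ctla2a, a cysteine protease inhibitor, stood at 539 CPM in sCAF, against 62.6 in GFP+ EpCAM- cells (ratio 8.61, interval 7.16 to 10.4).

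The genes with the lowest ratios were nearly absent from sCAF. Emp1, a tetraspan membrane protein of epithelia, had 25 counts in sCAF, against 2275 in GFP+ EpCAM- cells, and was 119-fold lower (interval 80.3 to 184). Its levels were 9.66 CPM in sCAF and 1148 in GFP+ EpCAM- cells, with 1211 in GFP+ EpCAM+, 732 in GFP- EpCAM+, 905 in GFP- EpCAM-, 499 in pCAF and 248 in NMF, so sCAF stood below all 6 other libraries. Emp1 was also split between the tables, with every library of the first below every library of the second. Cxcl5, a neutrophil-attracting chemokine, was at 0 in sCAF, a limit of 1.16 CPM at 3 counts, against 181 CPM (358 counts) in GFP+ EpCAM- cells, and was at least 156-fold lower. Mmp13, collagenase 3, had 2 counts in sCAF, against 406 in GFP+ EpCAM- cells (ratio 0.00377, interval 4.55e-04 to 0.0137). Cbfb, the common partner of RUNX factors, had 0 counts in sCAF and 98.4 CPM in GFP+ EpCAM- cells, with 147 in pCAF and 25.9 in NMF. Vcl, the focal adhesion protein vinculin, stood at 0.773 CPM in sCAF and 101 in GFP+ EpCAM- cells, with 111 in GFP+ EpCAM+, 58.8 in GFP- EpCAM+, 120.3 in GFP- EpCAM-, 196 in pCAF and 25.9 in NMF. For Cbfb and Vcl, too, sCAF was the lowest of the 7.

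Within the second table few genes were called between GFP+ EpCAM- cells and the other GFP+ or EpCAM+ sorts, but many epithelial genes were. Of 27 epithelial keratin and adhesion genes 10 were called lower than in GFP+ EpCAM+ cells and 0 higher (median log2 ratio -1.29). Against GFP- EpCAM+ cells 18 of 27 were called lower and 0 higher (median -1.79). Of 9100 genes 36 (0.396%) were called higher and 67 (0.736%) lower than in GFP+ EpCAM+ cells, and of 9145 genes 115 (1.26%) higher and 464 (5.07%) lower than in GFP- EpCAM+ cells. Over all genes compared, 5.55% were called higher and 14.1% lower in GFP+ EpCAM- than in GFP- EpCAM- cells. In the first table sCAF had 11.2% called higher and 11.5% lower than pCAF, and 15.9% higher and 17.3% lower than NMF.

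Within the tables, where libraries share a scale, each of the 2 libraries could be set against stromal libraries of its own table without a shared control sample. Of 8322 genes compared on both sides, 587 (7.05%) were higher in sCAF than in both pCAF and NMF, and 504 (6.06%) were higher in GFP+ EpCAM- than in GFP- EpCAM- cells. The lists shared 192 genes (2.31% of all), which is 32.7% of the first list and 38.1% of the second. Lower in sCAF than in both were 563 genes (6.77%), and lower in GFP+ EpCAM- cells 774 (9.3%). Of these 296 were shared (3.56% of all), or 52.6% of the sCAF list and 38.2% of the GFP+ EpCAM- list. Opposite directions were rarer, with 11 genes higher in sCAF and lower in GFP+ EpCAM- cells, and 14 the other way. These 14 included C3, C4b, Pdgfra, Fbln2 and Mmp3, and the 11 included Stc1, Ubd and Il2rg, named here after their values were seen. Of the 192 genes higher on both sides, the direct ratio between the 2 libraries was called higher in 8 (4.17%) and lower in 17 (8.85%), shares close to those of all genes. Of the 296 lower on both sides, 139 passed the minimum, with 42 (30.2%) called higher and 19 (13.7%) lower. The minimum shapes that count, since a gene low in both libraries passes only through the one that holds more of it.

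The genes highest on both sides encode proteins of several kinds. Padi4, an enzyme that converts arginine to citrulline in histones, stood at 428 CPM in sCAF and 456 in GFP+ EpCAM- cells, with 425 in GFP+ EpCAM+, 346 in GFP- EpCAM+, 41.1 in GFP- EpCAM-, 0 in pCAF and 0 in NMF. Its levels in sCAF and GFP+ EpCAM- cells were nearly equal (ratio 0.939, interval 0.859 to 1.03), and both lay above those of the stromal sorts. Msln, the surface protein mesothelin, stood at 322 CPM in sCAF, against 344 in GFP+ EpCAM- cells and was 15.7-fold the pCAF level. S100a4, a calcium-binding protein also known as fibroblast-specific protein, stood at 2723 CPM in sCAF, against 2743 in GFP+ EpCAM- cells (ratio 0.993, interval 0.958 to 1.03). In sCAF it was 7.72-fold the pCAF level and 40.9-fold the NMF level. In GFP+ EpCAM- cells it was 8.12-fold the GFP- EpCAM- level. Tns4, a focal adhesion tensin, stood at 333 CPM in sCAF, against 541 in GFP+ EpCAM- cells, with 4.60 in pCAF and 38.8 in GFP- EpCAM- cells. The transcription factor genes Gata3 (130.2 CPM in sCAF, 137 in GFP+ EpCAM-), active in luminal mammary cells, and Sox9 (77.3 CPM in sCAF, 114 in GFP+ EpCAM-), active in progenitors of several epithelia, followed the same order. Igf2bp2, an RNA-binding protein, had 196 CPM in sCAF, 171 in GFP+ EpCAM-, and Car9, the hypoxia-regulated carbonic anhydrase, 105 CPM in sCAF, 178 in GFP+ EpCAM-.

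The 15 genes lowest on both sides included collagens and other secreted proteins. Serping1, the C1 inhibitor, stood at 37.9 CPM in sCAF and 5.05 in GFP+ EpCAM- cells, with 1.68 in GFP+ EpCAM+, 12.2 in GFP- EpCAM+, 1413 in GFP- EpCAM-, 5985 in pCAF and 4397 in NMF. It was thus low in sCAF and lower still in GFP+ EpCAM- cells (ratio 7.50, interval 3.91 to 16.1). Cxcl12, the chemokine of stromal cells, had 11 counts in sCAF and 0 in GFP+ EpCAM- cells, against 289 CPM in GFP- EpCAM-, 384 in pCAF and 1112 in NMF. Gas6, a ligand of TAM receptors, had 3 counts in sCAF and 1 in GFP+ EpCAM- cells, and Rarres2, the adipokine chemerin, had 34 in sCAF and 6 in GFP+ EpCAM- cells. Col3a1, Col1a2, Col1a1 and Dcn were in the same set and are described with the fibroblast genes.

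**Figure D2:**
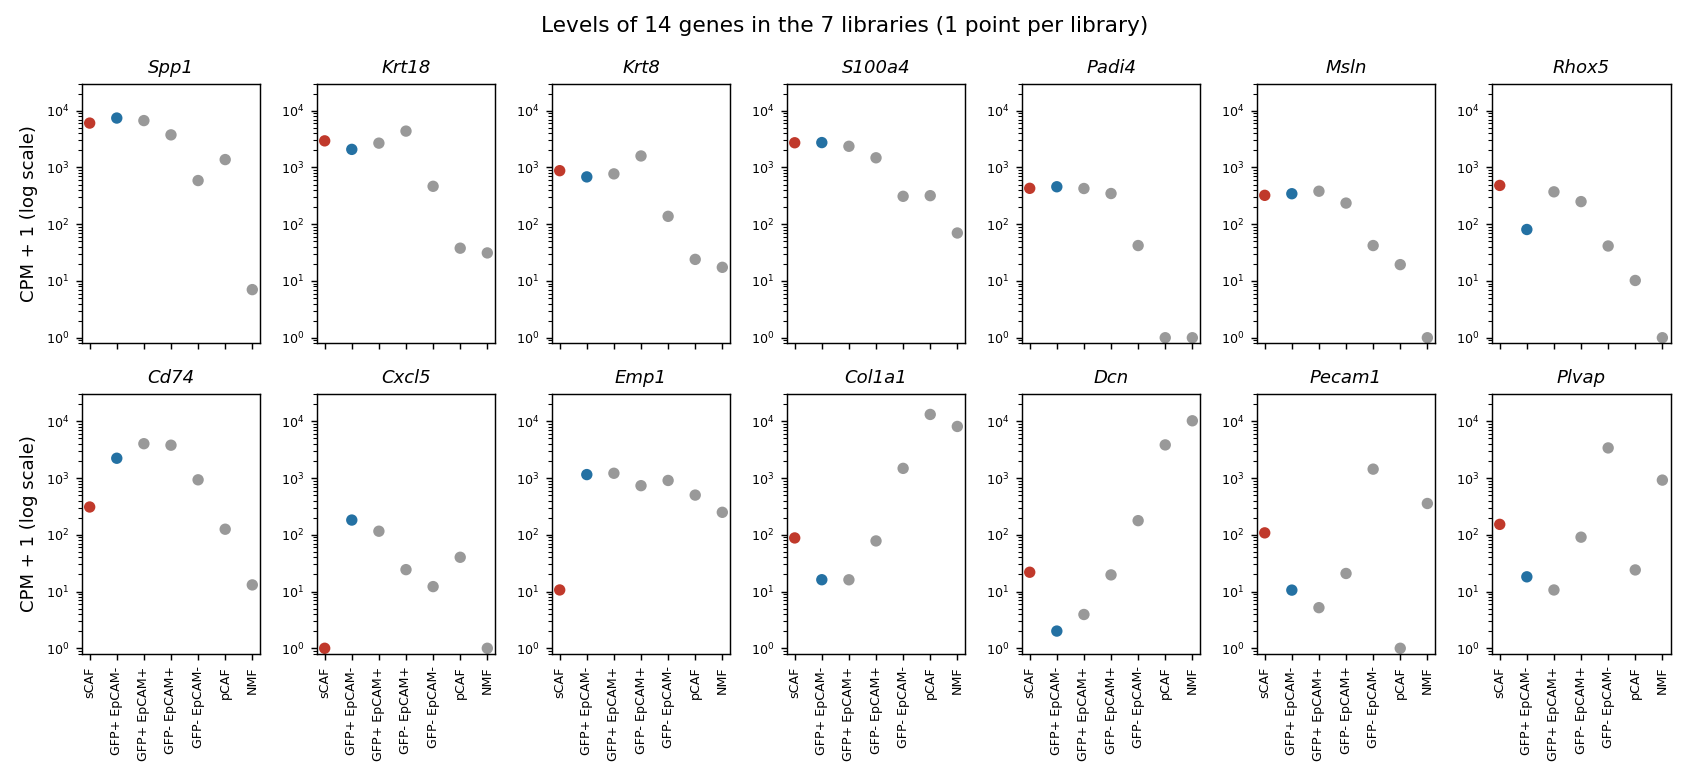
CPM + 1 (log scale) of 14 genes in each of the 7 libraries, 1 point per library, with sCAF in red and GFP+ EpCAM- in blue. Spp1, Krt18, Krt8, S100a4, Padi4 and Msln are at like levels in both, Cd74, Cxcl5 and Emp1 are lower in sCAF, and Col1a1, Dcn, Pecam1, Plvap and Rhox5 are higher.

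Epithelial genes had a median ratio near that of all genes. Of 23 epithelial keratin and adhesion genes that passed the minimum, 1 was called higher in sCAF and 4 lower, with a median log2 ratio of -0.05 against 0.11 for all genes. The 27 listed genes summed to 6015 CPM in sCAF and 5279.6 in GFP+ EpCAM- cells. The EpCAM+ sorts reached 9881 (GFP+) and 15221 (GFP-), and the stromal libraries held 1737 (GFP- EpCAM-), 216 (pCAF) and 321 (NMF). Within its table sCAF was called higher than pCAF for 16 of 22 of these genes and higher than NMF for 17 of 22. Krt8, the partner of Krt18, stood at 877 CPM in sCAF, against 681 in GFP+ EpCAM- cells, and Krt7 at 612 CPM in sCAF, against 563 in GFP+ EpCAM- cells. Lad1, a basement membrane anchoring protein, had 380.2 CPM in sCAF, 309.8 in GFP+ EpCAM-, and Spint2, an inhibitor of membrane serine proteases, 229 CPM in sCAF, 213 in GFP+ EpCAM-. Esrp1, an epithelial splicing regulator, was the member called higher, at 53.7 CPM in sCAF, against 8.58 in GFP+ EpCAM- cells (ratio 6.26, interval 3.77 to 11.1). Esrp1 reached the minimum in sCAF alone. Among the 4 called lower were Krt19 (44.4 CPM in sCAF, 174 in GFP+ EpCAM-), Tjp1 (1.93 CPM in sCAF, 36.8 in GFP+ EpCAM-) and the protease gene St14 (32.8 CPM in sCAF, 88.3 in GFP+ EpCAM-). Of the 4, 2 reached the minimum in GFP+ EpCAM- cells alone. Tjp1, which encodes the junction scaffold ZO-1, was lowest in sCAF of all 7 libraries.

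Some basal and luminal genes were lower in sCAF, where 8.62% of all genes were called lower. Among 6 basal genes, 2 were called lower, the keratin Krt14 at 37.9 CPM in sCAF, against 127 in GFP+ EpCAM- cells, and Lamb3, a laminin chain of epithelial basement membrane, at 16.6 CPM in sCAF, against 143 in GFP+ EpCAM- cells. Both were below all 4 libraries of the second table in every library of the first. Itgb4, a subunit of the laminin receptor, had 398 CPM in sCAF, 611 in GFP+ EpCAM- and passed no call. Of 5 luminal and secretory genes, 3 were called lower. These were Areg, an EGF-family growth factor (43.3 CPM in sCAF, 299 in GFP+ EpCAM-), Lcn2, an iron-siderophore carrier (256 CPM in sCAF, 1162 in GFP+ EpCAM-), and Wfdc2, a secreted whey acidic protein family member (1294 CPM in sCAF, 3028 in GFP+ EpCAM-). Wfdc2 in sCAF still stood far above the 9.20 CPM of pCAF. The caseins Csn1s1 and Csn3 had 0 counts in both libraries.

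Fibroblast genes were low in both libraries, and several were less low in sCAF. Of 13 fibroblast identity genes, 7 were called higher in sCAF and 1 lower (median log2 ratio 2.18). Col1a1, the main chain of type I collagen, had 225 counts in sCAF, against 30 in GFP+ EpCAM- cells, or 86.9 CPM in sCAF, 15.1 in GFP+ EpCAM- (ratio 5.74, interval 3.91 to 8.71). In the other libraries it stood at 15.1 in GFP+ EpCAM+, 76.9 in GFP- EpCAM+, 1478 in GFP- EpCAM-, 13187 in pCAF and 8097 in NMF. sCAF thus stood above GFP+ EpCAM- cells and far below pCAF, by 169-fold after TMM scaling within the table. Col3a1, of type III collagen, had 27.4 CPM in sCAF, 2.52 in GFP+ EpCAM- (ratio 10.9, interval 4.45 to 34.5), Dcn, the proteoglycan decorin, 20.9 CPM in sCAF, 1.01 in GFP+ EpCAM-, and Postn, the matricellular protein periostin, 34.8 CPM in sCAF, 3.53 in GFP+ EpCAM-. Thy1 (36.7 CPM in sCAF, 8.07 in GFP+ EpCAM-), Col1a2 (37.1 CPM in sCAF, 5.55 in GFP+ EpCAM-) and Col6a3 (22.0 CPM in sCAF, 4.04 in GFP+ EpCAM-) made up the rest of those called higher. Fbln2, the elastic fibre protein fibulin-2, was lower, at 192 CPM in sCAF, against 921 in GFP+ EpCAM- cells (ratio 0.208, interval 0.188 to 0.230). The 19 listed genes summed to 921 CPM in sCAF and 1712 in GFP+ EpCAM- cells, so the sum and the median differed in direction. The sum was carried by Fbln2, Col6a1 (221 CPM in sCAF, 401 in GFP+ EpCAM-) and Col6a2 (148 CPM in sCAF, 233 in GFP+ EpCAM-). In pCAF it was 72645 and in NMF 48907. sCAF was called lower than pCAF for 18 of 18 and lower than NMF for 19 of 19 of the genes compared. Of the 7 called higher, 6 reached the minimum in sCAF alone. Among the 6 members with 100 or more counts 1 was called higher and 1 lower, and the median log2 ratio was -0.76.

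Genes of steady-state fibroblasts split both ways, with 3 of 7 called higher and 3 lower. Called higher were Cd34 (46.7 CPM in sCAF, 3.53 in GFP+ EpCAM-), Gpx3, a secreted glutathione peroxidase (25.5 CPM in sCAF, 1.51 in GFP+ EpCAM-), and Serping1, described above, and all 3 reached the minimum in sCAF alone. Lower were Ly6c1 (52.5 CPM in sCAF, 296 in GFP+ EpCAM-), Ugdh (54.9 CPM in sCAF, 217 in GFP+ EpCAM-) and complement C3 (65.7 CPM in sCAF, 511 in GFP+ EpCAM-). With no minimum on counts the median was 0.61, against -0.73 with it, and with the lowest GC quintile left out it was 1.09.

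Endothelial genes had the highest median of the lists with 5 or more genes past the minimum. Of 17 that passed, 14 were called higher and 0 lower, with a median log2 ratio of 3.14. Of the 14, 10 reached the minimum in sCAF alone, so the minimum itself favoured that direction. With 100 or more counts in either library 7 of 8 were called higher. Pecam1, the adhesion molecule CD31, had 277 counts in sCAF, against 19 in GFP+ EpCAM- cells (ratio 11.2, interval 7.01 to 18.8). Its levels were 107 CPM in sCAF and 9.59 in GFP+ EpCAM- cells, with 4.19 in GFP+ EpCAM+, 19.8 in GFP- EpCAM+, 1432 in GFP- EpCAM-, 0 in pCAF and 355 in NMF. Plvap, of the diaphragms of fenestrated vessels, stood at 151 CPM in sCAF, against 17.2 in GFP+ EpCAM- cells (ratio 8.83, interval 6.21 to 12.9). Kdr, a VEGF receptor, had 31 counts in sCAF, against 1 in GFP+ EpCAM- cells (ratio 23.7, interval 3.96 to 967). The cadherin Cdh5 (54.1 CPM in sCAF, 5.05 in GFP+ EpCAM-), the mucin-like Emcn (49.1 CPM in sCAF, 4.04 in GFP+ EpCAM-), the receptor Robo4 (30.5 CPM in sCAF, 2.02 in GFP+ EpCAM-) and von Willebrand factor Vwf (24.0 CPM in sCAF, 2.52 in GFP+ EpCAM-) were likewise higher. Flt1 (27.0 CPM in sCAF, 15.6 in GFP+ EpCAM-), Tie1 (17.0 CPM in sCAF, 9.08 in GFP+ EpCAM-) and Eng (242 CPM in sCAF, 241 in GFP+ EpCAM-) were not called. Eng, a TGF-beta co-receptor, had like levels in the 2 libraries and in the EpCAM+ sorts (251 CPM in GFP+ and 216 in GFP- cells). The 20 listed genes summed to 1059 CPM in sCAF and 380.4 in GFP+ EpCAM- cells, against 14392 in GFP- EpCAM-, 396 in pCAF and 5490.0 in NMF. Within its table sCAF was called higher than pCAF for 10 of 17 endothelial genes and lower than NMF for 17 of 20.

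Pericyte and contractile genes were few in counts. Of 7 pericyte genes 3 were called higher, Cspg4, the surface proteoglycan NG2 (26 counts in sCAF, 3 in GFP+ EpCAM- cells), Abcc9 (9.27 CPM in sCAF, 0 in GFP+ EpCAM-) and Ndufa4l2 (11.6 CPM in sCAF, 0.505 in GFP+ EpCAM-). All 3 reached the minimum in sCAF alone, and with 100 or more counts 1 member was left and 0 were called. The list summed to 153 CPM in sCAF, 48.9 in GFP+ EpCAM- cells and 4565 in GFP- EpCAM- cells. Among 6 contractile genes Myl9, a myosin light chain, was the one called, at 24.3 CPM in sCAF, against 3.03 in GFP+ EpCAM- cells (ratio 8.04, interval 3.49 to 22.7). Myl9 reached the minimum in sCAF alone, and with 100 or more counts 0 of 3 contractile genes were called (median -0.26). Acta2, smooth muscle actin, had 8 counts in sCAF, against 2 in GFP+ EpCAM- cells, too few to compare. Fabp4, a fatty acid carrier of adipocytes and of capillary endothelium, stood at 77.7 CPM in sCAF, against 8.58 in GFP+ EpCAM- cells. It too reached the minimum in sCAF alone. The adipocyte markers Adipoq, Plin1 and Cidec had 0 counts in both.

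Leukocyte lists were low in both libraries apart from single genes. The 18 macrophage and monocyte genes summed to 75.7 CPM in sCAF and 114 in GFP+ EpCAM- cells, against 1572 in GFP- EpCAM- cells. Csf1r had 3 counts in sCAF and 0 in GFP+ EpCAM- cells, and Adgre1 had 0 in both. Of the 18, 5 were at 0 in sCAF and 7 in GFP+ EpCAM- cells. Cd68, a lysosomal protein, was called lower (5.02 CPM in sCAF, 49.4 in GFP+ EpCAM-), and Cd14, a co-receptor for endotoxin, was not (44.0 CPM in sCAF, 48.4 in GFP+ EpCAM-). Cd68 reached the minimum in GFP+ EpCAM- cells alone. The part of macrophages in the Spp1 level was not tested. The 9 neutrophil genes listed in both tables summed to 432 CPM in sCAF and 462 in GFP+ EpCAM- cells, with 6 at 0 in sCAF and 5 in GFP+ EpCAM- cells. Padi4, described above, was the one that passed the minimum, and S100a8, a calcium-binding protein of neutrophils, had 4 counts in sCAF and 1 in GFP+ EpCAM- cells. The basophil and mast cell list summed to 19.3 CPM in sCAF and 6.56 in GFP+ EpCAM- cells, and the lymphocyte list to 0.386 in sCAF and 3.53 in GFP+ EpCAM- cells. No gene of these 2 lists passed the minimum.

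**Figure D3:**
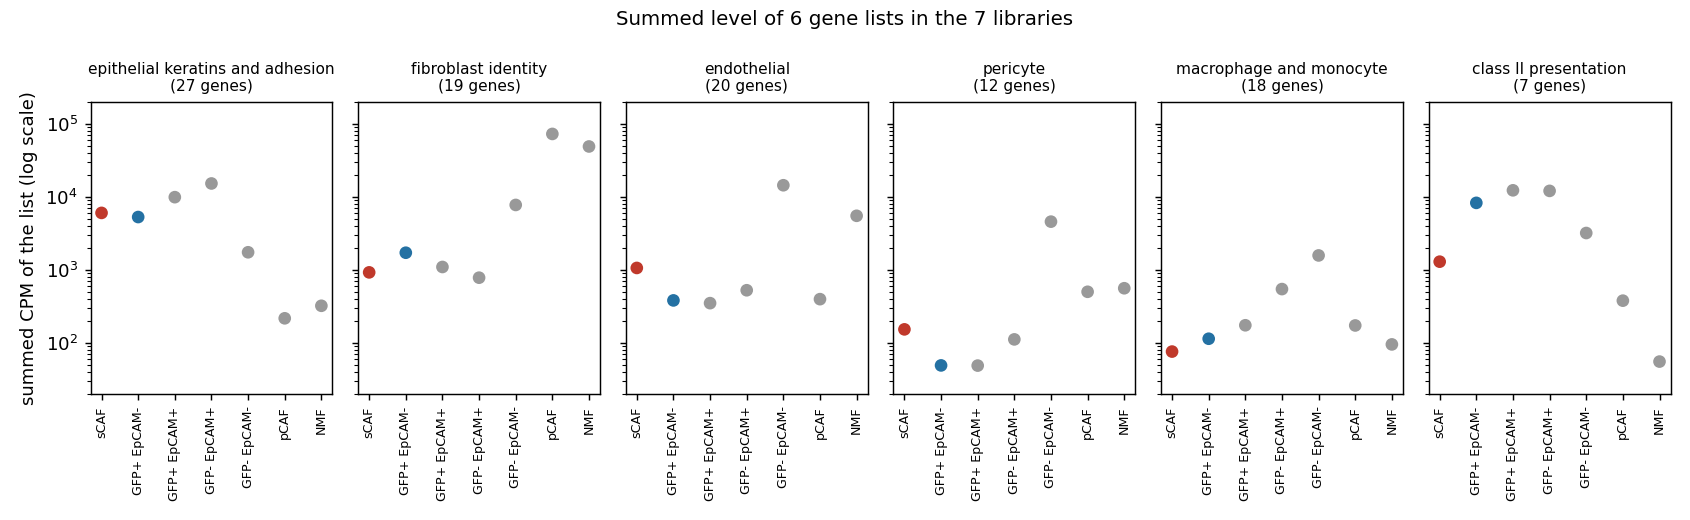
Summed CPM (log scale) of 6 gene lists in each of the 7 libraries, sCAF in red and GFP+ EpCAM- in blue. sCAF lies near GFP+ EpCAM- in the epithelial list, above it in the endothelial list (1059 in sCAF, 380 in GFP+ EpCAM-) and the pericyte list, and below it in class II presentation (1291 in sCAF, 8254 in GFP+ EpCAM-).

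Class II presentation genes, which display peptides to CD4+ T cells, were lower in sCAF. All 6 that passed were called lower (median log2 ratio -2.77), and all 6 stood below every library of the second table in all 3 libraries of the first. Cd74, the invariant chain, stood at 308 CPM in sCAF and 2229 in GFP+ EpCAM- cells, with 4021 in GFP+ EpCAM+, 3784 in GFP- EpCAM+, 929 in GFP- EpCAM-, 124 in pCAF and 12.1 in NMF (ratio 0.138, interval 0.128 to 0.149 for sCAF over GFP+ EpCAM-). H2-Aa stood at 476 CPM in sCAF, against 2118 in GFP+ EpCAM- cells, H2-Ab1 at 197 CPM in sCAF, 1264 in GFP+ EpCAM- and H2-Eb1 at 191 CPM in sCAF, 1669 in GFP+ EpCAM-. Within its own table sCAF was not low: it was called higher than NMF for 6 of 6 class II genes and higher than pCAF for 3 of 6. In the second table GFP+ EpCAM- cells were called higher than GFP- EpCAM- cells for 5 of 6. Where called, the 2 libraries thus stood above the stromal libraries of their tables, for sCAF more often against NMF of uninjected mice than against pCAF. How far the table and the cells each bear on the direct ratio was not tested.

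Some class I genes were lower in sCAF, where 8.62% of all genes were called lower. Of 10, 3 were called lower, H2-D1 (4561 CPM in sCAF, 10496 in GFP+ EpCAM-), the peptide transporter Tap1 (500 counts in sCAF, 990 in GFP+ EpCAM-) and the immunoproteasome subunit Psmb9 (418 counts in sCAF, 991 in GFP+ EpCAM-). All 3 were split between the tables. Of 23 interferon-stimulated genes 10 were called lower and 0 higher (median log2 ratio -1.19), 8 of the 10 split between the tables. Of the 10, 2 reached the minimum in GFP+ EpCAM- cells alone. sCAF was the lowest of the 7 libraries for 12 of the 23, against 10.5% of all genes. Irf1, an interferon-induced factor, stood at 318 CPM in sCAF, against 847 in GFP+ EpCAM- cells, and Gbp2, a guanylate-binding protein, at 192 CPM in sCAF, against 849 in GFP+ EpCAM- cells. Ifit1, an inhibitor of viral RNA translation, had 2 counts in sCAF, against 54 in GFP+ EpCAM- cells, while Isg15 (131 CPM in sCAF, 223 in GFP+ EpCAM-) and Bst2 (346 CPM in sCAF, 419.8 in GFP+ EpCAM-) passed no call.

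Many inflammatory mediators were lower in sCAF. Of 16 chemokine, cytokine and feedback genes 9 were called lower and 0 higher (median -1.48). Of the 9, 4 reached the minimum in GFP+ EpCAM- cells alone. With 100 or more counts in either library 7 of 13 were called lower and 0 higher (median -1.34). Ccl2, which attracts monocytes, stood at 66.1 CPM in sCAF and 523 in GFP+ EpCAM- cells, with 281 in GFP+ EpCAM+, 261 in GFP- EpCAM+, 305 in GFP- EpCAM-, 1330.0 in pCAF and 10.4 in NMF (ratio 0.126, interval 0.107 to 0.149). Ccl7 had 7.34 CPM in sCAF, 67.1 in GFP+ EpCAM-, and Csf3, which drives granulocyte production, 174 CPM in sCAF, 539 in GFP+ EpCAM-. Il1a had 0 counts in sCAF and 97 in GFP+ EpCAM- cells, at least 42.2-fold lower, with 0 in pCAF and NMF also. Nfkbiz, an NF-kB cofactor, stood at 14.3 CPM in sCAF, against 278 in GFP+ EpCAM- cells, the lowest of the 7 libraries. Cxcl1 (761 CPM in sCAF, 1186 in GFP+ EpCAM-), Lif (156 CPM in sCAF, 211 in GFP+ EpCAM-) and Csf1, the macrophage growth factor (340.0 CPM in sCAF, 294 in GFP+ EpCAM-), passed no call. From the inflammatory fibroblast list 6 of 11 were called lower, Cxcl5, Ccl2, Ccl7 and Lcn2 as above, with the acute-phase gene Saa3 (11.6 CPM in sCAF, 107 in GFP+ EpCAM-) and the hyaluronan synthase Has2 (57.6 CPM in sCAF, 206 in GFP+ EpCAM-). Of these 6, 2 reached the minimum in GFP+ EpCAM- cells alone. Saa3 stood at 1592 CPM in pCAF.

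Many matrix-degrading enzymes were lower in sCAF. Of 13 metalloproteinase, plasminogen activator and inhibitor genes 8 were called lower and 1 higher (median -1.80). Of the 8, 4 reached the minimum in GFP+ EpCAM- cells alone, and the 1 called higher did so in sCAF alone. With 100 or more counts in either library 6 of 10 were called lower and 0 higher (median -1.76). Mmp9, gelatinase B, stood at 276 CPM in sCAF and 976 in GFP+ EpCAM- cells, with 1977 in GFP+ EpCAM+, 1421 in GFP- EpCAM+, 179 in GFP- EpCAM-, 75.9 in pCAF and 1.73 in NMF (ratio 0.283, interval 0.259 to 0.308). The level in sCAF lay below all 3 GFP+ or EpCAM+ sorts and above both other libraries of its table. Mmp3 had 46.4 CPM in sCAF, 328 in GFP+ EpCAM-, Mmp10 6.57 CPM in sCAF, 61.1 in GFP+ EpCAM-, and the urokinase receptor Plaur 120.2 CPM in sCAF, 419.8 in GFP+ EpCAM-. Mmp14, the membrane-bound activator of gelatinase A, was not called (573 CPM in sCAF, 374 in GFP+ EpCAM-), nor was Timp2 (953 CPM in sCAF, 986 in GFP+ EpCAM-). Timp3, a matrix-bound inhibitor, was the one called higher, at 10.4 CPM in sCAF, against 1.01 in GFP+ EpCAM- cells (ratio 10.3, interval 2.60 to 89.7).

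Matricellular and basement membrane genes were called in both directions, 3 of 10 in one list and 4 of 13 in the other, against 5.75% higher and 8.62% lower over all genes. Fn1, fibronectin, stood at 3282 CPM in sCAF, against 3026 in GFP+ EpCAM- cells, and Thbs1, thrombospondin 1, at 235 CPM in sCAF, against 197 in GFP+ EpCAM- cells. Sparcl1 (104 CPM in sCAF, 10.1 in GFP+ EpCAM-) and the proteoglycan Bgn (68.4 CPM in sCAF, 8.58 in GFP+ EpCAM-) were called higher and tenascin C, Tnc (11.2 CPM in sCAF, 80.2 in GFP+ EpCAM-), lower, of 10 members (median 0.07). Of the 2 called higher 1 reached the minimum in sCAF alone. Of 13 basement membrane genes 3 were called higher, Col4a2 (620.1 CPM in sCAF, 247 in GFP+ EpCAM-) and the nidogens Nid1 (35.5 CPM in sCAF, 5.05 in GFP+ EpCAM-) and Nid2 (25.9 CPM in sCAF, 3.53 in GFP+ EpCAM-), and Lamb3 lower. Of the 3 called higher 2 reached the minimum in sCAF alone. With 100 or more counts in either library 1 of 10 basement membrane genes was called higher and 1 lower (median 0.15). Lama5 (569.9 CPM in sCAF, 752 in GFP+ EpCAM-) and Lamb1 (502 CPM in sCAF, 354 in GFP+ EpCAM-) passed no call. Of 7 genes of mesenchymal state, Twist1, a factor that represses E-cadherin, was called lower at 70.7 CPM in sCAF, against 204 in GFP+ EpCAM- cells, and Snai1, another such factor, was not (163 CPM in sCAF, 184 in GFP+ EpCAM-).

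Of 22 cell cycle genes 3 were called higher and 1 lower (median 0.26), against 5.75% higher and 8.62% lower over all genes. Top2a, the mitotic topoisomerase, stood at 309 CPM in sCAF and 212 in GFP+ EpCAM- cells, with 285 in GFP+ EpCAM+, 149.7 in GFP- EpCAM+, 63.5 in GFP- EpCAM-, 41.4 in pCAF and 1.73 in NMF, so both libraries lay above all 3 stromal sorts. Mki67 (129 CPM in sCAF, 34.3 in GFP+ EpCAM-) and the replication helicase subunits Mcm5 (282 CPM in sCAF, 104 in GFP+ EpCAM-) and Mcm6 (381 CPM in sCAF, 124 in GFP+ EpCAM-) were called higher. Rrm2, a subunit of ribonucleotide reductase, was called lower (5.02 CPM in sCAF, 80.2 in GFP+ EpCAM-) and was split between the tables. Rrm2 reached the minimum in GFP+ EpCAM- cells alone. Within the first table sCAF was called higher than NMF for 20 of 21 cell cycle genes and higher than pCAF for 15 of 22.

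Of 12 glycolysis genes 1 was called higher and 3 lower, and of 15 other hypoxia genes 0 and 2 (medians -0.50 and -0.50). Gapdh, described above, is not in the glycolysis list. The 1 glycolysis gene called higher reached the minimum in sCAF alone. Of the 3 glycolysis genes called lower 1 reached it in GFP+ EpCAM- cells alone, as did 1 of the 2 hypoxia genes. With 100 or more counts in either library 0 of 10 glycolysis genes were called higher and 3 lower. Over all genes 5.75% were called higher and 8.62% lower. Vegfa, the main vascular growth factor, stood at 112 CPM in sCAF, against 313 in GFP+ EpCAM- cells (ratio 0.358, interval 0.310 to 0.412), and the kinases Hk2 at 25.9 CPM in sCAF, 99.4 in GFP+ EpCAM- and Pfkl at 170.4 CPM in sCAF, 513 in GFP+ EpCAM-. Ldha (1496 CPM in sCAF, 1205 in GFP+ EpCAM-), Slc2a1 (175 CPM in sCAF, 236 in GFP+ EpCAM-) and Ndrg1 (630.1 CPM in sCAF, 795 in GFP+ EpCAM-) passed no call. With GFP- EpCAM+ cells in place of GFP+ EpCAM- cells both medians turned positive, at 0.32 and 0.93. The immediate early list had 5 of 18 called lower, among them Jun (480.2 CPM in sCAF, 1245 in GFP+ EpCAM-), Ier3 (1324 CPM in sCAF, 3546 in GFP+ EpCAM-) and Nr4a1 (116 CPM in sCAF, 532 in GFP+ EpCAM-), while Fosb (986 CPM in sCAF, 1047 in GFP+ EpCAM-), Egr1 (547 CPM in sCAF, 608 in GFP+ EpCAM-) and Zfp36 (659.9 CPM in sCAF, 656 in GFP+ EpCAM-) were not called. Rhox5, an X-linked homeobox gene of the reproductive tract, stood at 482 CPM in sCAF and 79.7 in GFP+ EpCAM- cells, with 371 in GFP+ EpCAM+, 249 in GFP- EpCAM+, 40.3 in GFP- EpCAM-, 9.20 in pCAF and 0 in NMF (ratio 6.04, interval 5.12 to 7.18). Its level in sCAF was the highest of the 7, nearest to that of GFP+ EpCAM+ cells. Insl6, an insulin-like gene of testis, had 277 CPM in sCAF, 107 in GFP+ EpCAM- (ratio 2.58, interval 2.21 to 3.02).

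**Figure D4:**
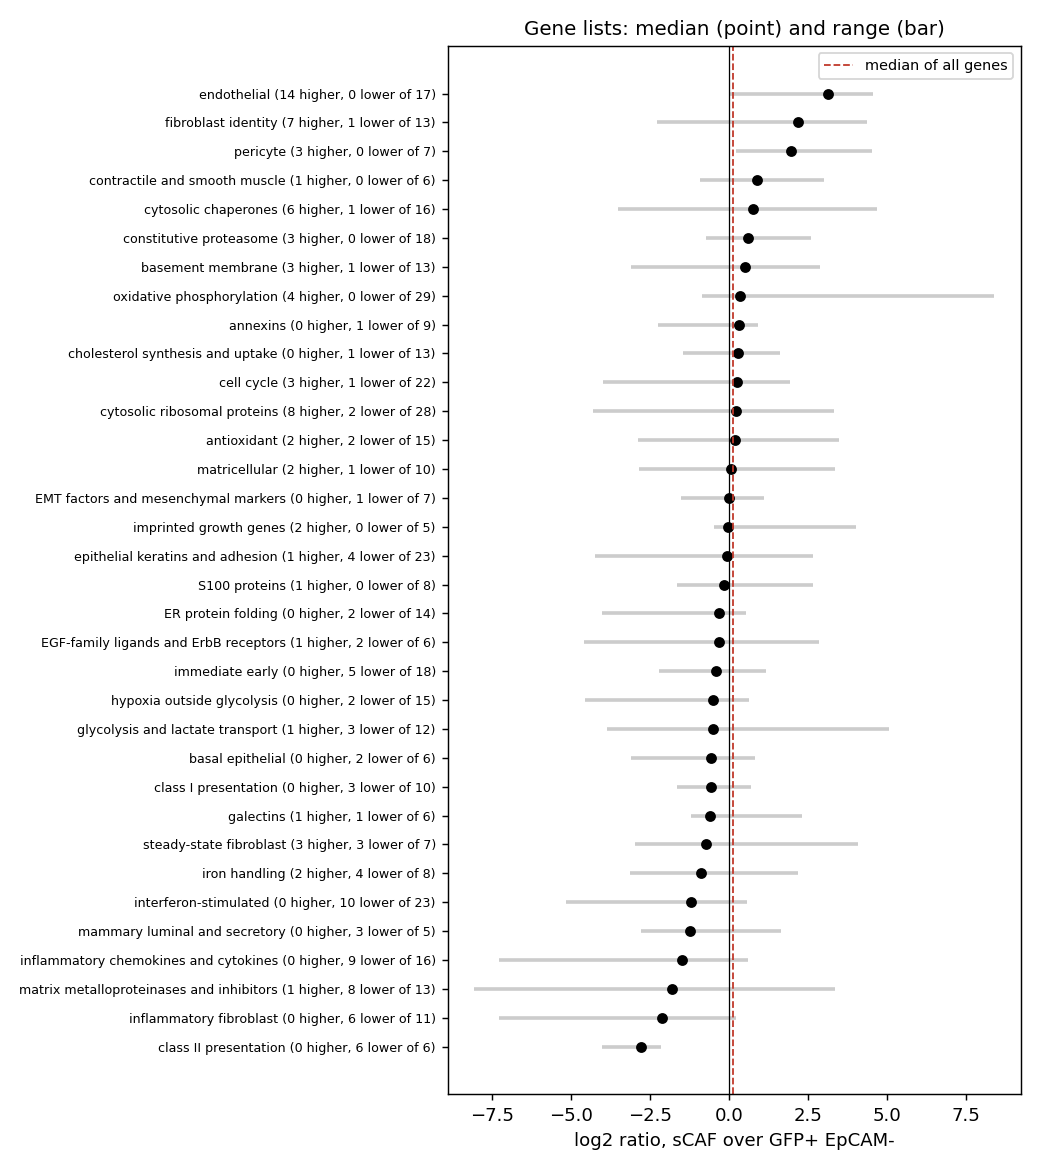
Median (point) and range (bar) of the log2 ratio of sCAF over GFP+ EpCAM- for each gene list with 5 or more genes past the minimum, with the number called higher and lower. The dashed line is the median of all genes (0.11), the endothelial list lies highest at 3.14 and class II presentation lowest at -2.77.

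Housekeeping lists are read against 5.75% of all genes called higher and 8.62% lower. Of 16 cytosolic chaperones 6 were called higher and 1 lower, with Hspe1 (564 CPM in sCAF, 168 in GFP+ EpCAM-) and Dnajb1 (281 CPM in sCAF, 55.5 in GFP+ EpCAM-) among those not split between the tables. Of the 6, 2 reached the minimum in sCAF alone, and the 1 called lower did so in GFP+ EpCAM- cells alone. Of 29 oxidative phosphorylation genes 4 were called higher and 0 lower, and of 18 proteasome genes 3 and 0 (medians 0.34 and 0.60). Of the 4 oxidative phosphorylation genes 1 reached the minimum in sCAF alone. Of 28 ribosomal protein genes 8 were called higher and 2 lower, and many of these genes have near copies in the genome. Of the 2 called lower 1 reached the minimum in GFP+ EpCAM- cells alone. In the endoplasmic reticulum folding list 2 of 14 were called lower and 0 higher. Hspa5, the chaperone BiP, stood at 89.2 CPM in sCAF and 1447 in GFP+ EpCAM- cells, with 1392 in GFP+ EpCAM+, 969.6 in GFP- EpCAM+, 1076 in GFP- EpCAM-, 1622 in pCAF and 875 in NMF (ratio 0.0617, interval 0.0537 to 0.0706). sCAF lay below the other 6, which lay between 875 and 1622 CPM. Other members of that list, Hsp90b1 (609 CPM in sCAF, 467 in GFP+ EpCAM-), Pdia6 (593 CPM in sCAF, 597 in GFP+ EpCAM-) and P4hb (1110.3 CPM in sCAF, 770.4 in GFP+ EpCAM-), passed no call.

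The genes called lower had AT-rich 3' ends. Over the last 500 bases of the longest protein-coding transcript (GENCODE M21, 96.7% of genes with a value), the median GC content was 37.2% for genes called lower, 43.6% for those called higher and 45.6% for those called neither. Within the genes called lower it was 35.2% for the 482 that were lowest in sCAF of all 7 libraries and 44.6% for the other 275. In the quintile of genes with the lowest GC (18.2% to 37.4%), 21.7% were called lower and 5.35% higher. In the other quintiles 8.19%, 4.03%, 4.12% and 5.06% were called lower. sCAF was the lowest of the 7 libraries for 23.1% of genes in the lowest quintile and for 9.93%, 5.71%, 6.41% and 6.60% in the others. For GFP+ EpCAM- cells these shares ran between 3.43% and 6.0%. pCAF, the shallowest library, was the lowest more often than sCAF, for 29.7% of genes in the lowest quintile and 32.8% to 39.6% in the others. NMF was the lowest for 18.4% in the lowest quintile and 17.5% to 20.4% in the others. The motif ATTTA was in the last 500 bases of 68.2% of genes called lower, 46.8% of those called higher and 50.5% of the rest, and AT-rich sequence holds it more often.

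In the 4 pairs across the tables examined without sCAF, genes called higher had a median GC between 45.0% and 45.6%. The median GC was 47.4% for genes that pCAF had lower than GFP+ EpCAM- cells, and 47.2% for those it had lower than GFP- EpCAM- cells. For NMF it was 45.4% for genes lower than in GFP+ EpCAM- cells and 46.6% for genes lower than in GFP- EpCAM- cells. With sCAF it was 37.8% for genes lower than in GFP+ EpCAM+ cells, and 42.6% each for genes lower than in GFP- EpCAM+ cells, in pCAF or in NMF. Genes that sCAF had higher stood at 44.6%, 43.4%, 45.6% and 44.8% in these pairs, in the same order. Against GFP- EpCAM+ cells the 2 sides were thus close. The cause of the contrast was not tested. Among genes named above and called lower, the last 500 bases of Emp1 held 32.8% GC, Cxcl5 28.2%, Cbfb 37% and Nfkbiz 29.4%. Cd74, also called lower, held 56%. Neither marker gene was called, and Spp1 held 32.6% and Krt18 54.6%. By list the median was 36.6% for the inflammatory fibroblast genes, 36.9% for chemokines and cytokines, 43.8% for metalloproteinases and inhibitors, 45.4% for interferon-stimulated genes and 53.1% for class II presentation. With ratios centred within 20 bins of 3' end GC, 6 of 11 inflammatory fibroblast genes (median -1.92) and 9 of 16 chemokines and cytokines (median -1.41) were called lower, as many as without centring. With the lowest GC quintile left out 2 of 5 inflammatory fibroblast genes (median -2.12) and 3 of 7 chemokines and cytokines (median -1.04) were. Both alternatives were chosen after seeing the data.

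**Figure D5:**
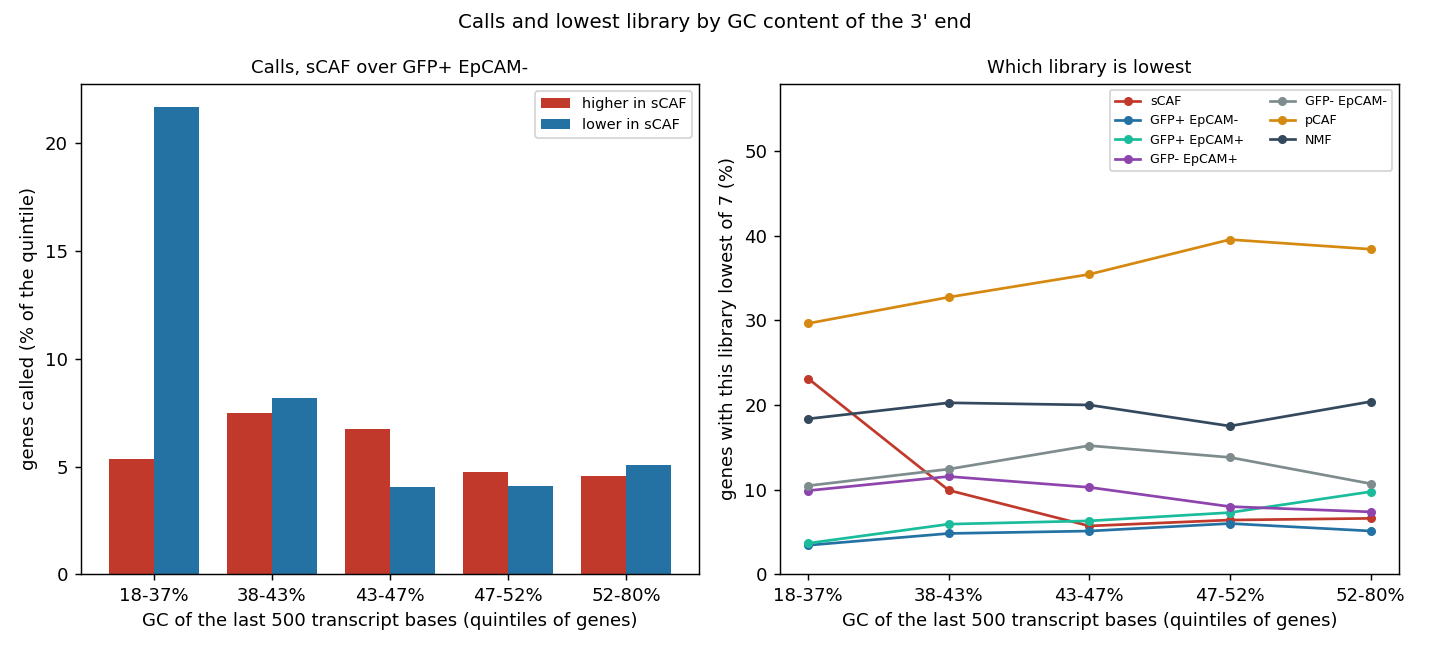
Left, the share of genes called higher (red) or lower (blue) in sCAF over GFP+ EpCAM-, by quintiles of the GC content of the last 500 transcript bases. Right, the share of genes for which each library was the lowest of the 7. In the lowest quintile 21.7% of genes were called lower, and sCAF was the lowest library for 23.1% of genes there against 5.71% to 9.93% in the other quintiles.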

How the data were processed

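The files hold whole-number counts for each gene symbol with no scaling, as their values show, in 2 tables that the authors deposited separately. The submitters' processing notes name mm10 and the tools bcl2fastq, cutadapt, STAR, HTSeq and DESeq2, with neither roles nor settings. Each library carried a molecular identifier, per the labels, and in the first table a barcode too. No source used here says whether reads were collapsed by identifier, or how strand and reads shared by several genes were handled. PCR copies may therefore be counted, and intervals and limits cover counting error only.

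Names turned into dates (27 and 21) were left out. CPM was taken over the 13236 names listed in both tables, of which 96.6% matched the reference symbols. For each gene with 20 or more counts in either library, scipy 1.17.1 under Python 3.11.15 gave the CPM ratio an exact 95% Clopper-Pearson interval, from the binomial split of its counts. A call needed all of this interval beyond 2-fold. A 0 was set to 3 counts, which enters list medians as a bound. Where neither library had more than 3 counts no ratio was taken. Ratios within a table were scaled by TMM (edgeR 4.0.16, R 4.3.3), with DESeq2 1.42.0 as an alternative. Genes are named, under a written rule, by ratio, level, within-table ratios and list membership. The members, the lists and the rule were chosen with earlier results of these data known. With 1 library a group there is no spread between replicates. The method was run on simulated data that held counting error and planted changes alone. These had no difference between tables and no spread between animals, so the run does not bear on either. Values of some genes are not reported here.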

Additional observations from a re-analysis of the deposited data

How the results depend on the processing

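No paired analysis was possible because each group is 1 library. With 100 or more counts in either library 303 genes were called higher and 369 lower, fewer because fewer genes were compared. A 4-fold rule gave 117 higher and 400 lower. Without the quintile of genes lowest in 3' end GC, an alternative chosen after seeing the data, 399 were higher and 363 lower. Spearman's rho was 0.70 with 100 or more counts and 0.90 with no minimum. TMM over the pair gave 441 higher and 815 lower, with a median of 0.02 on the log2 scale over all genes, against 0.11. Centring ratios within 20 bins of 3' end GC, also chosen afterwards, gave 486 and 711. The counts of genes split between the tables (134 and 237 with TMM) stayed within 1.5 times. Those shared within the tables did too (159 and 316 with DESeq2 factors, 231 and 288 with total counts).

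Some list medians changed sign. With 100 or more counts fibroblast identity stood at -0.76, contractile genes at -0.26 and Schwann cell genes at -0.35. With no minimum steady-state fibroblast and macrophage genes both stood at 0.61. Without the lowest GC quintile steady-state fibroblast genes stood at 1.09 and adipocyte genes at -0.094. With GFP+ EpCAM+ cells in place of GFP+ EpCAM- cells, chosen afterwards, Schwann cell genes stood at -0.32, and with GFP- EpCAM+ cells glycolysis stood at 0.32 and hypoxia at 0.93. The cause was not tested. pCAF, the shallowest library, limits what can be said of low genes there, since 3 counts are 6.90 CPM.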

Other observations

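Iron genes were called in both directions, where 5.75% of all genes were called higher and 8.62% lower. Of 8 that passed the minimum 2 were called higher in sCAF and 4 lower. Of the 4, 1 reached the minimum in GFP+ EpCAM- cells alone. The transferrin receptor Tfrc stood at 92.3 CPM in sCAF, against 20.2 in GFP+ EpCAM- cells (ratio 4.58, interval 3.26 to 6.57). Hmox1, the haem-degrading oxygenase, stood at 20.9 CPM in sCAF, against 154 in GFP+ EpCAM- cells, and the ferritin light chain Ftl1 at 1434 CPM in sCAF, against 428 in GFP+ EpCAM- cells, which was split between the tables and has many near copies. Among 15 antioxidant genes Prdx1 (387 CPM in sCAF, 53.0 in GFP+ EpCAM-) and Gpx4 (191 CPM in sCAF, 17.2 in GFP+ EpCAM-) were called higher and Hmox1 and Prdx5 (476 CPM in sCAF, 1270.5 in GFP+ EpCAM-) lower.

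The imprinted gene H19, a long non-coding RNA of fetal growth, stood at 836 CPM in sCAF and 1169 in GFP+ EpCAM- cells, with 487 in GFP+ EpCAM+, 60.6 in GFP- EpCAM+, 587 in GFP- EpCAM-, 175 in pCAF and 132 in NMF, and passed no call (ratio 0.715, interval 0.674 to 0.759). Mest (38.6 CPM in sCAF, 5.05 in GFP+ EpCAM-) and Grb10 (8.11 CPM in sCAF, 0.505 in GFP+ EpCAM-) were called higher, of 5 members. These 2 reached the minimum in sCAF alone, so the minimum itself favoured that direction. Here and for the lists that follow, 5.75% of all genes were called higher and 8.62% lower. Of 9 annexins Anxa8 was called lower, at 48.3 CPM in sCAF, against 231 in GFP+ EpCAM- cells, and Anxa2 stood at 2671 CPM in sCAF, against 2616 in GFP+ EpCAM- cells. Of 6 galectins Lgals3 was called lower (779.6 CPM in sCAF, 1781 in GFP+ EpCAM-) and Lgals7 higher (49.8 CPM in sCAF, 10.1 in GFP+ EpCAM-). In the EGF family Errfi1, a feedback inhibitor of the receptor, stood at 13.9 CPM in sCAF, against 337 in GFP+ EpCAM- cells, the lowest of the 7 libraries, and Nrg1, a neuregulin ligand, at 10.8 CPM in sCAF, against 1.51 in GFP+ EpCAM- cells (ratio 7.15, interval 2.21 to 36.7). Nrg1 reached the minimum in sCAF alone. Of 8 S100 genes S100a11 was called higher (742 CPM in sCAF, 118 in GFP+ EpCAM-, split between the tables). Of 13 cholesterol genes Sqle was called lower (28.2 CPM in sCAF, 77.2 in GFP+ EpCAM-), and none higher. Of the 14 genes lower in sCAF and higher in GFP+ EpCAM- cells within their tables, Pdgfra, a fibroblast receptor, stood at 44.0 CPM in sCAF and 35.8 in GFP+ EpCAM- cells, with 15.5 in GFP+ EpCAM+, 5.82 in GFP- EpCAM+, 1.49 in GFP- EpCAM-, 168 in pCAF and 388 in NMF. Its level in GFP+ EpCAM- cells exceeded that of GFP- EpCAM- cells, where it had 2 counts.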
